A study of Mus musculus with 16 samples.

Results

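Older LINE-1 (L1) windows are short stretches of the mouse genome that lie in L1 repeats other than the young L1Md and L1_Mus families. They were taken from a table of window counts as the windows of the L1 family whose annotation gives a repeat name and whose name begins with neither L1Md nor L1_Mus. This rule used no expression value and gave 7131 of 205758 windows, or 3.47%. The table holds 18204 L1 windows in all, of which 9868 are young and 1205 are annotated by a gene feature in place of a repeat name.

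RNA was sequenced from dissociated dorsal root ganglia, lumbar L4 to L6, which hold the cell bodies of sensory neurons whose axons run in the sciatic nerve. A sciatic nerve of each mouse was crushed, and after 24 h or 72 h the ganglia of the injured and of the naive side were collected from the same animals. The 16 libraries make 4 groups of 4: naive and injured at 24 h, and naive and injured at 72 h. All libraries went through dissociation with Percoll, and the naive libraries come from animals that carried a crushed nerve. The labels used here give no strain, age or sex, and do not say which injured and naive library share an animal, so libraries were compared unpaired.

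L1 is a retrotransposon, an element that copies itself into new places of the genome through an RNA. Most copies are truncated or mutated remnants that no longer move, and the names used here order them by age: L1M copies are shared among mammals, whereas Lx, L1_Mur and L1_Rod copies spread in the rodent lineage. Old copies lie in introns and between genes, and their sequence can be carried in RNAs that started at another promoter. A count in such a window therefore shows reads from that stretch of DNA and not a moving element.

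The label held for the annotation of most members. Of the 7131 windows, 6791 were annotated as L1, under 114 repeat names, and 340 carried the name of another repeat. Lx names gave 3380 windows, L1M names 2317, and the L1_Mur, L1_Rod and L1VL names 927. Of all members, 6968 (97.7%) were 24 bp long and the longest had 86 bp. By the GENCODE M21 annotation 316 members overlapped an exon, 3635 lay in an intron and 3180 lay outside genes. The windows are thus tags of copies and not whole elements, and how they were chosen is not stated.

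Counts came from few of these windows. Only 2002 members (28.1%) had a count in any library and 5129 had none. The 16 libraries held 4919 to 9422 member counts each, and 110847 together, which was 1.07% of all counts in windows with a repeat family. The 10 most counted windows held 48.3% of the member counts and the 3 most counted held 25.4%. Exons held 4.43% of the windows and 38.7% of the counts. Introns held 51.0% of the windows and 21.8% of the counts. After a filter on low counts 121 members (1.7%) could be tested, with a median of 190 counts over the 16 libraries.

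Sequences are shown for some well-counted members that lie wholly in an exon. Of the 121 tested members 30 had such a sequence and 91 had none. None of the windows that passed the injury tests below had one, so the sequences do not describe those windows. The sequences were read from GENCODE M21 transcripts and are given on the plus strand of GRCm38 (mm10), with the window in capitals. Both Lx5 windows lie at chr3:119709764-119709787 and chr3:119709597-119709620 in Gm4332, a processed pseudogene, and are shown with their flanks:
Lx5 window a in Gm4332: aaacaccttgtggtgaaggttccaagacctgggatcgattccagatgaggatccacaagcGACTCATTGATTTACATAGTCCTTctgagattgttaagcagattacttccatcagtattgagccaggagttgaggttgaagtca
Lx5 window b in Gm4332: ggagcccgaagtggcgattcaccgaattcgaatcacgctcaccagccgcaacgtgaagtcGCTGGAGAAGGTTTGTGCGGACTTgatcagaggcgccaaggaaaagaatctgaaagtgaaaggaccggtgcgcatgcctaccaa
The first stretch had 143 of 144 bases in common with a transcript of Rps20, which encodes a protein of the small ribosomal subunit, and the second had 144 of 144. These windows carry an Lx5 annotation but the letters of a ribosomal protein gene, so the annotated repeat name goes against the sequence there. Of the 290 members that lay wholly in an exon, 28 had their first 24 bases also in a transcript of another gene.

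Other counted members were unlike this pair. The L1MA4 window at chr2:112471773-112471796 lies in an exon of Emc7, a subunit of the endoplasmic reticulum membrane complex. The Lx5b window at chr3:118533086-118533109 lies in Gm37928. The L1MA8 window at chr5:28480466-28480490 lies in Gm26894, a long intergenic non-coding RNA.
L1MA4 window in Emc7: CAGACTCAGAAAATCAAAATGCTC
Lx5b window in Gm37928: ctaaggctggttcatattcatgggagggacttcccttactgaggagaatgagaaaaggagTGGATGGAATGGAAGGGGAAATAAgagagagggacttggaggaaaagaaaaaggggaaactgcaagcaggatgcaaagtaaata
L1MA8 window in Gm26894: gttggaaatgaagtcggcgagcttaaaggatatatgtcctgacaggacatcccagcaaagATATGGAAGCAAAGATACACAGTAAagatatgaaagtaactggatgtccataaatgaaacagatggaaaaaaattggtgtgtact
None of these 3 windows had its first 24 bases in a transcript of another gene. Among the 30 tested members with a sequence in these transcripts, the median A+T content was 66.1%, with a range of 41.7% to 87.5%.

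The comparison of injured with naive ganglia asks whether transcripts from older L1 copies change after nerve crush. Levels are given in CPM, the counts of a window relative to the gene-table library size after scaling with TMM factors of that table. Gene-table totals ran from 32758978 to 56484541 counts per library and repeat-window totals from 522869 to 899167. Repeat-window counts were 2.15% of gene counts in injured 24 h library 4, against 1.28% to 1.64% in the other libraries. Among cell type markers, summed sensory neuron markers lay between 14500 and 17500 CPM in all groups. Summed macrophage markers, 8 genes all above 0, lay between 13.3 and 25.5 CPM in 3 groups and between 48.5 and 61.5 CPM in injured ganglia at 72 h, where 6 of the 8 rose, against 14.4% of all tested genes. Of 6 neutrophil markers, 5 fell at 72 h, against 13.5% of all tested genes. Their sums at 72 h overlapped, with 105 to 414 CPM in naive and 38.7 to 149 CPM in injured ganglia. At 24 h they were 45.9 to 155 CPM in naive and 54.4 to 101 CPM in injured ganglia, so the naive group at 72 h held the highest sum. The part of these cells in the 72 h results given here was not tested. In bulk RNA, fewer cells of a type and less RNA per cell cannot be told apart.

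Summed over all 7131 windows, older L1 RNA showed no difference between injured and naive ganglia that exceeded the spread between libraries. At 24 h the summed level was 153, 146, 158 and 163 CPM in naive libraries and 167, 141, 152 and 161 CPM in injured libraries, or 155 ± 7.08 against 155 ± 11.1 CPM (SD, n = 4). At 72 h it was 154, 162, 178 and 168 CPM in naive and 158, 161, 160 and 162 CPM in injured libraries, or 166 ± 10.3 against 160 ± 1.79 CPM. The groups overlapped at both times, and the log2 ratio of the means was 0.00 at 24 h and -0.05 at 72 h. No test was made of this sum. When scaled to the total of all repeat windows instead, the log2 ratio was -0.32 at 24 h and -0.14 at 72 h. The value at 24 h includes injured library 4, which had the highest share of repeat-window counts.

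The classes of older L1 differed little between groups, apart from L1M names at 72 h. Lx windows summed to 60.6 ± 3.48 CPM in naive and 62.7 ± 4.65 CPM in injured ganglia at 24 h, and to 62.2 ± 4.05 and 65.3 ± 0.283 CPM at 72 h, with overlap at both times. L1_Mur, L1_Rod and L1VL windows summed to 29.1 ± 4.26 against 32.1 ± 2.76 CPM at 24 h and to 29.8 ± 2.59 against 34.2 ± 1.39 CPM at 72 h, again with overlap. Within the 72 h sums, a single L1_Mur2 window described below had 12.5 ± 2.14 against 17.3 ± 1.68 CPM. L1M windows, the oldest class, summed to 62.7 ± 2.31 CPM in naive and 57.4 ± 5.19 CPM in injured ganglia at 24 h, with overlap, and to 70.8 ± 5.45 and 57.3 ± 1.47 CPM at 72 h. At 72 h the L1M sums of the injured libraries, 56.2, 57.3, 56.4 and 59.4 CPM, all lay below those of the naive libraries, 65.1, 69.0, 78.1 and 70.7 CPM. The log2 ratio was -0.30.

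The lower L1M sum at 72 h was held by a pair of windows. These are L1MB4 windows that start 153 bp apart on chromosome 5, downstream of the gene Gm7271, which held 12.7% of all member counts. Their joint level was 24.0 ± 1.57 CPM in naive and 15.9 ± 2.43 CPM in injured ganglia at 24 h, and 26.3 ± 0.925 and 13.5 ± 1.85 CPM at 72 h, without overlap. Without this pair, which was singled out after its values were seen, the other 2315 L1M windows summed to 44.4 ± 5.56 CPM in naive and 43.9 ± 1.41 CPM in injured ganglia at 72 h, a log2 ratio of -0.02. The other 7129 members summed to 139 ± 10.5 and 147 ± 2.34 CPM, a log2 ratio of 0.07, with overlap.

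**Figure D1:**
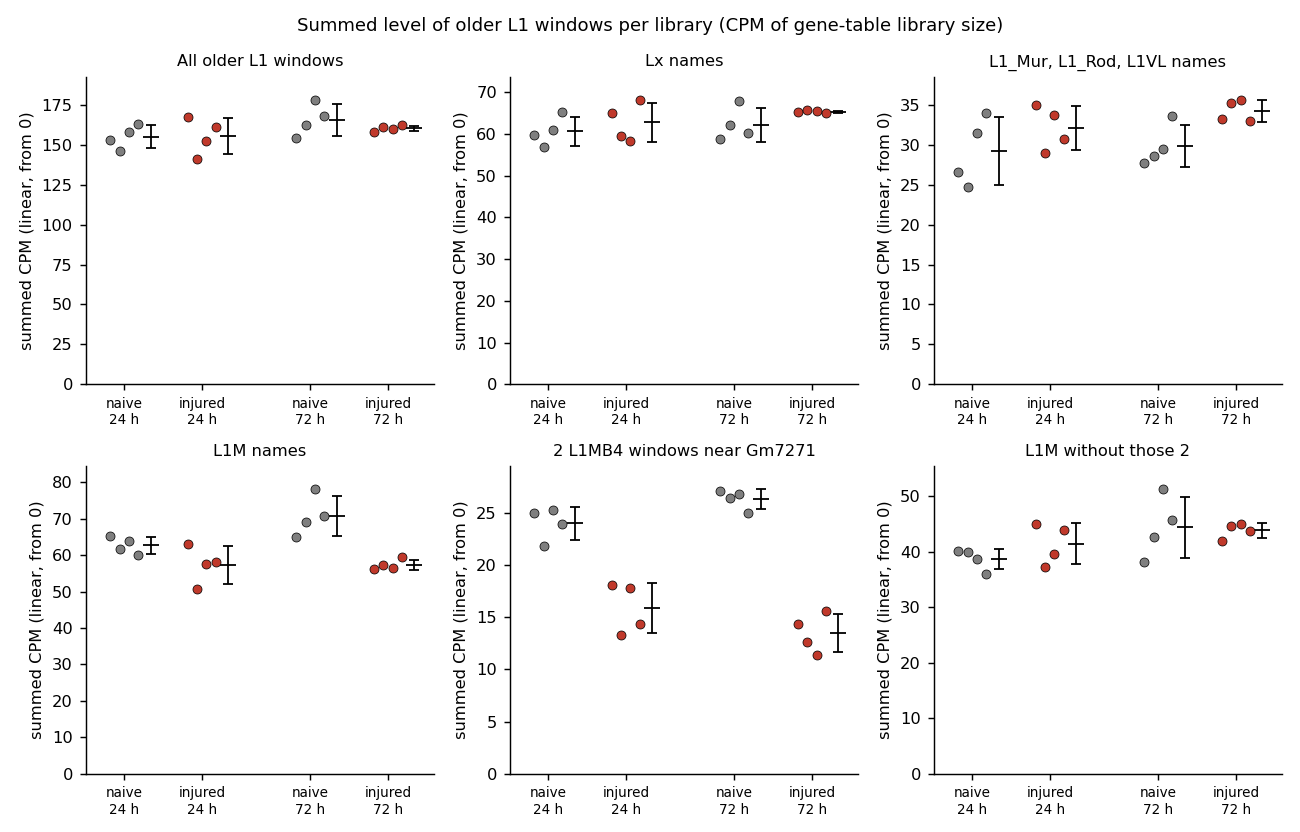
Summed CPM of older L1 windows in each library (points; y axes linear from 0) with the mean and SD of the 4 libraries of a group (bars), for all members, for classes of names and for a pair of L1MB4 windows. The total overlaps between naive and injured ganglia at both times, whereas the L1MB4 pair had means of 26.3 and 13.5 CPM at 72 h and the other L1M windows 44.4 and 43.9 CPM.

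Location split the members in a like way. Windows in exons summed to 60.7 ± 4.84 and 64.4 ± 4.44 CPM in naive and injured ganglia at 24 h, and to 56.9 ± 2.79 and 65.0 ± 5.05 CPM at 72 h. The groups overlapped at both times. Within these sums, the 3 windows in or at Rps20 and Rps25 copies described below had 31.8 ± 1.82 and 39.6 ± 2.81 CPM at 72 h. Windows outside genes summed to 66.1 ± 2.71 CPM in naive and 56.5 ± 2.43 CPM in injured ganglia at 72 h without overlap. Without the L1MB4 pair the same windows summed to 39.7 ± 2.12 and 43.0 ± 0.702 CPM, so the direction turned. Intronic windows overlapped between naive and injured ganglia at each time, with 28.2 ± 1.9 and 28.4 ± 2.74 CPM at 24 h and 42.6 ± 7.44 and 38.5 ± 2.19 CPM at 72 h. The intronic sums of the 8 libraries at 72 h, from 33.7 to 50.9 CPM, all lay above those of the 8 libraries at 24 h, from 24.6 to 31.2 CPM. That shift was shared by naive and injured ganglia, and time and library preparation cannot be told apart in it.

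Young L1 windows summed to 56.5 ± 2.23 and 75.6 ± 16 CPM in naive and injured ganglia at 24 h, with overlap, and to 63.3 ± 5.04 and 73.3 ± 4.35 CPM at 72 h, without overlap. The injured libraries at 24 h had 69.6, 59.2, 76.4 and 97.1 CPM. The highest was library 4, which also had the highest share of repeat-window counts. The difference between young and older windows was not tested.

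Single windows were tested with edgeR in a fit over all 3780 windows with a repeat family that passed the filter. At 24 h 4 of the 121 tested older L1 windows rose (3.31%), against 4.63% of all tested windows, and 3 fell (2.48%), against 0.556%. At 72 h 5 rose (4.13%), against 9.07% of all tested windows, and 3 fell (2.48%), against 1.75%. The median log2 fold change of the members was -0.0032 at 24 h and 0.0005 at 72 h, against 0.11 over all tested windows at each time. Since a window could pass the filter through a single group, these counts describe the tested windows and not all 7131 members. An unadjusted p under 0.05 was reached by 22 members at 24 h (18.2%, against 17.2% of all tested windows) and by 17 at 72 h (14%, against 21.7%).

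In all, 10 windows passed the threshold of an adjusted p under 0.05 at either time. Of these, 5 were higher and 5 lower in injured ganglia, and 5 passed at both times. The 5 higher windows had few or no counts in naive libraries and passed the filter through injured libraries. Their folds and lack of overlap, given below, are therefore descriptions of windows that were tested because injured libraries were high. None lay in an exon, 3 lay in introns and 7 outside genes, where 32, 37 and 52 members were tested. Over all tested windows 4.63% rose and 0.556% fell at 24 h, and 9.07% and 1.75% at 72 h. With so few calls, differences between locations or between classes of names were not tested. None of the 19 tested L1_Mur, L1_Rod and L1VL windows passed. Of 47 tested Lx windows 1 rose and 2 fell at 24 h and 1 rose at 72 h, and of 51 tested L1M windows 3 rose and 1 fell at 24 h and 4 rose and 3 fell at 72 h.

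**Figure D2:**
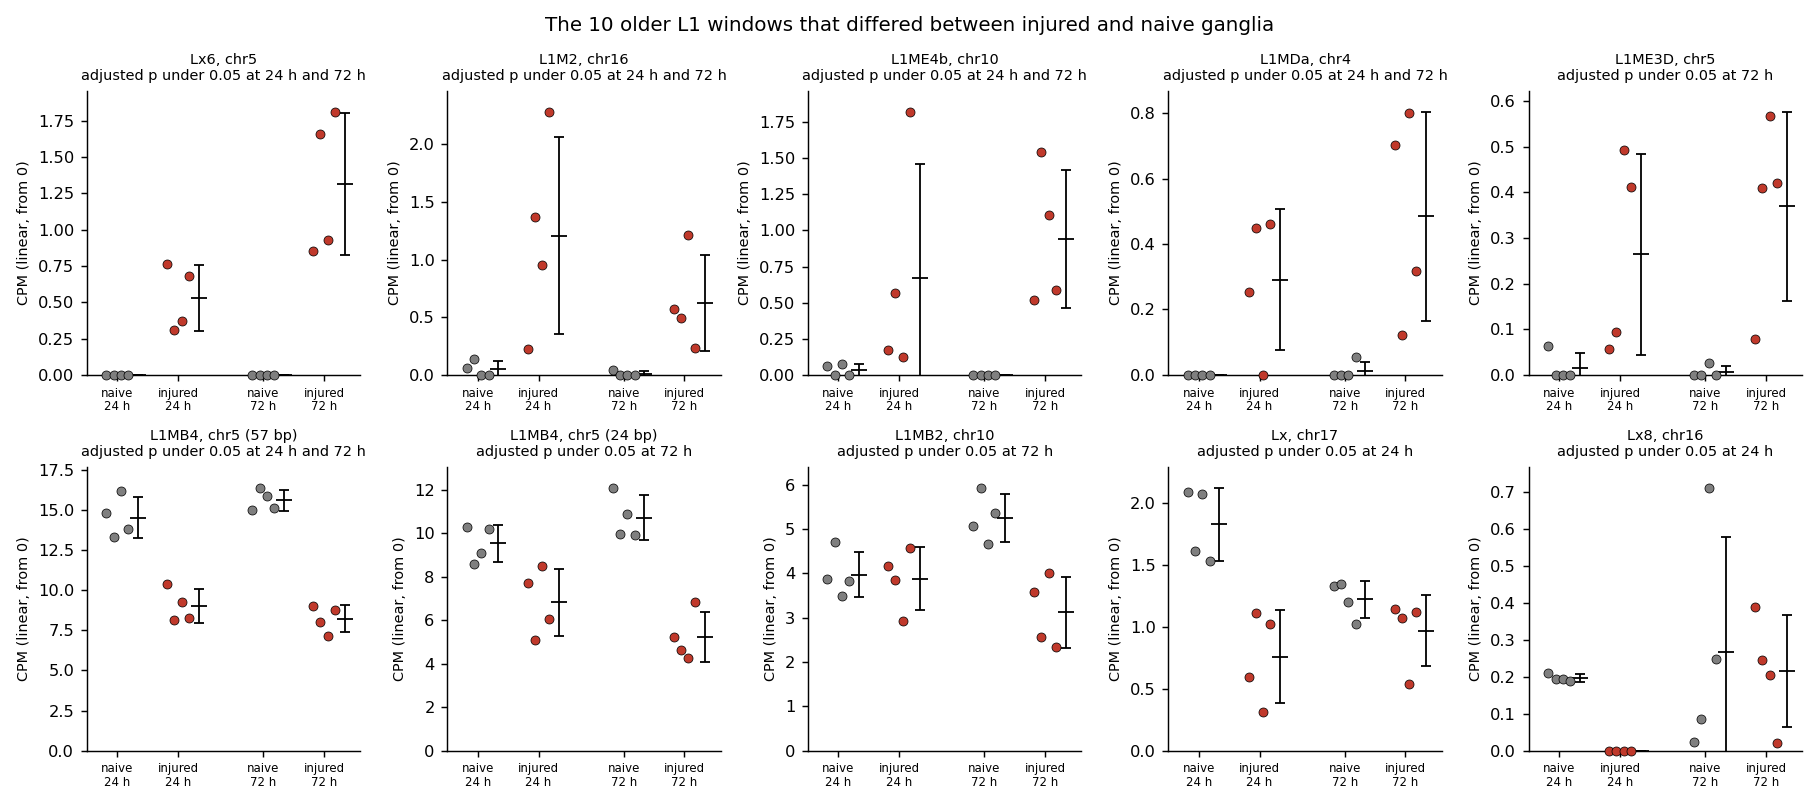
CPM of each of the 10 older L1 windows with an adjusted p under 0.05 in at least 1 injury comparison, per library (points) with mean and SD of 4 libraries (bars, drawn down to 0 only; y axes linear from 0, with a scale of their own). The 5 windows of the upper row had 0 to 8 counts in every naive library, and the L1MB4 windows fell from 15.6 to 8.23 CPM and from 10.7 to 5.24 CPM at 72 h.

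An Lx6 window, chr5:53800022-53800045, rose at both times from no count in any of the 8 naive libraries. With no naive count, it could enter the test only through its injured libraries. Its counts were 27, 13, 12 and 28 in injured libraries at 24 h and 33, 81, 36 and 86 at 72 h. All 8 injured libraries thus lay above all naive ones. Against a floor of 3 counts over the naive group the level was at least 33.1-fold higher at 24 h (adjusted p = 0.000517) and at least 83.9-fold higher at 72 h (adjusted p = 4.78e-05). The window lies outside genes, 9561 bp upstream of Tbc1d19, a member of a family of regulators of Rab GTPases. Tbc1d19 itself rose by 0.25 ± 0.05 (log2 fold change ± SE, adjusted p = 0.00196) at 24 h and by 0.59 ± 0.05 (adjusted p = 1.52e-08) at 72 h. Cckar, a cholecystokinin receptor gene 92317 bp away on the other side, fell by 0.28 ± 0.09 at 24 h (adjusted p = 0.0213) and rose by 1.75 ± 0.09 at 72 h (adjusted p = 2.34e-13).

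An L1M2 window, chr16:96917408-96917431, lies in an intron of Dscam, a cell adhesion molecule that takes part in the wiring of neurons. It had 3, 8, 0 and 0 counts in naive and 8, 58, 31 and 94 counts in injured libraries at 24 h. The naive libraries at 72 h had 2, 0, 0 and 0 counts and the injured libraries 22, 24, 47 and 11. In CPM the groups did not overlap at either time. The log2 fold change at 24 h was 4.39 ± 0.92 (SE, adjusted p = 0.00791), and the ratio of pooled levels at 72 h was 55.5, with a 95% counting interval of 15 to 464 (adjusted p = 0.00317). Dscam moved the other way and fell by 0.52 ± 0.09 at 24 h and by 0.62 ± 0.09 at 72 h (adjusted p = 0.000101 and 5.02e-06). A window annotated AT_rich that starts 4610 bp away had 6 and 60 counts in the naive and injured group at 24 h and 0 and 19 at 72 h, without passing the test (adjusted p = 0.199 and 0.0907). An L1MA5 window that starts 5318 bp away had 0 and 16 counts at 24 h and 0 and 19 at 72 h and was not tested.

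The L1ME4b window chr10:40540168-40540191 lies outside genes. The nearest tested gene was Cdk19, a kinase of the Mediator complex, 56350 bp away. Its counts at 24 h were 3, 0, 3 and 0 in naive and 6, 24, 4 and 75 in injured libraries (log2 fold change 4.25 ± 1.02, adjusted p = 0.0224). At 72 h no naive library had a count and the injured libraries had 20, 75, 43 and 28, at least a 59.0-fold difference (adjusted p = 0.00117). The groups did not overlap at either time, although 1 injured library held most of the counts at 24 h. Without injured 24 h library 4 the adjusted p at 24 h was 0.12, and without naive 24 h library 2 or 4 it was 0.0579 or 0.0562.

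The L1MDa window chr4:25304659-25304709 lies 22838 bp from Ufl1, which encodes the ligase that attaches UFM1 to proteins. At 24 h it had no count in naive libraries and 9, 19, 0 and 19 in injured libraries, at least 19.4-fold higher (adjusted p = 0.0233), with overlap at 0. Counts at 72 h were 0, 0, 0 and 3 in naive and 27, 6, 31 and 15 in injured libraries, a ratio of 28.1 with a 95% counting interval of 9.27 to 139 (adjusted p = 0.0265). A B2_Mm1t window that starts 141 bp before it had 0 and 10 counts in the naive and injured group at 24 h and 0 and 29 at 72 h. The call at each time was lost when any of several libraries was left out. Without naive 24 h library 1, 2 or 4 or injured 24 h library 4 the adjusted p at 24 h was 0.051, 0.0563, 0.0504 or 0.0621. Without naive 72 h library 1, 2 or 3 or injured 72 h library 1 or 3 the adjusted p at 72 h was 0.078, 0.08, 0.0698, 0.0636 or 0.0737.

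The L1ME3D window chr5:53233971-53233994 passed at 72 h and not at 24 h by edgeR. Its counts at 24 h were 3, 0, 0 and 0 in naive and 2, 4, 16 and 17 in injured libraries (adjusted p = 0.0831). At 72 h they were 0, 0, 1 and 0 against 3, 20, 22 and 20, a ratio of 69.4 with a 95% counting interval of 12.0 to 2780 (adjusted p = 0.0136). The groups overlapped at 24 h and not at 72 h. The nearest tested gene, Sel1l3, 20044 bp away, rose by 0.31 ± 0.06 and 0.61 ± 0.06 (adjusted p = 0.00136 and 1.05e-07). Without naive 72 h library 1 or 2 the adjusted p at 72 h was 0.0526 or 0.0525, and without naive 24 h library 1 that at 24 h was 0.0358. By DESeq2 the adjusted p at 24 h was 0.0242.

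Of the falls the best counted were those of the L1MB4 pair. The 57 bp L1MB4 window chr5:76518824-76518880 had 14.8, 13.3, 16.2 and 13.8 CPM in naive and 10.4, 8.17, 9.28 and 8.27 CPM in injured libraries at 24 h. The 72 h values were 15, 16.4, 15.9 and 15.1 CPM in naive and 9.03, 8.02, 7.12 and 8.75 CPM in injured libraries. Every injured library lay below every naive one. The log2 fold change was -0.68 ± 0.13 at 24 h (adjusted p = 0.00445) and -0.92 ± 0.13 at 72 h (adjusted p = 0.000125), and it passed under each of 25 alternatives at each time.

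The second L1MB4 window, chr5:76518977-76519000, had 9.52 ± 0.826 CPM in naive and 6.83 ± 1.54 CPM in injured ganglia at 24 h. The groups did not overlap, but the difference did not pass by edgeR (log2 fold change -0.48 ± 0.18, adjusted p = 0.138) and passed by DESeq2 (adjusted p = 0.0455). By 72 h the window fell from 10.7 ± 1.03 to 5.24 ± 1.14 CPM (-1.03 ± 0.18, adjusted p = 0.00081). Since the windows start 153 bp apart, they may count the same RNA and are no replicates of each other.

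The tested gene nearest to the L1MB4 pair fell with it. Gm7271, which ends 2175 bp before the first window, fell from 57.9 ± 5.71 to 36.3 ± 1.28 CPM at 24 h (log2 fold change -0.67 ± 0.08, adjusted p = 1.23e-06). At 72 h Gm7271 fell from 63.2 ± 1.96 to 29.9 ± 3.61 CPM (-1.08 ± 0.08, adjusted p = 3.64e-10). Another pair of L1 windows, annotated by the file as the end of this gene and not members, fell by 0.76 ± 0.18 and 0.62 ± 0.14 at 24 h and by 0.89 ± 0.18 and 1.21 ± 0.14 at 72 h. On the other side Exoc1, a subunit of the exocyst complex, had log2 fold changes of 0.05 ± 0.06 and 0.09 ± 0.06 and did not pass.

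The L1MB2 window chr10:34109352-34109375 lies in an intron of Trappc3l, a gene of the TRAPP membrane trafficking family. It had 3.87, 4.70, 3.49 and 3.82 CPM in naive and 4.17, 3.84, 2.93 and 4.58 CPM in injured libraries at 24 h, with overlap (-0.03 ± 0.19, adjusted p = 0.968). The 72 h levels were 5.06, 5.93, 4.65 and 5.36 CPM in naive and 3.58, 2.56, 4.00 and 2.34 CPM in injured libraries, with no overlap (-0.75 ± 0.19, adjusted p = 0.0145). Trappc3l followed the same course, with -0.03 ± 0.08 at 24 h (adjusted p = 0.826) and -0.54 ± 0.08 at 72 h (adjusted p = 6.85e-06). Calhm5, a gene within Trappc3l on the other strand, 12833 bp from the window, rose at both times, by 0.98 ± 0.16 and 1.03 ± 0.16 (adjusted p = 8.96e-05 and 2.92e-05). An RLTR12D window and a (CATA)n window within 10 kb fell at 72 h as well, by 0.56 ± 0.13 and 0.67 ± 0.19 (adjusted p = 0.0109 and 0.0298). Without naive 72 h library 2 or injured 72 h library 2 or 4 the adjusted p of the L1MB2 window was 0.0607, 0.0637 or 0.0607, and with no filter it was 0.315.

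**Figure D3:**
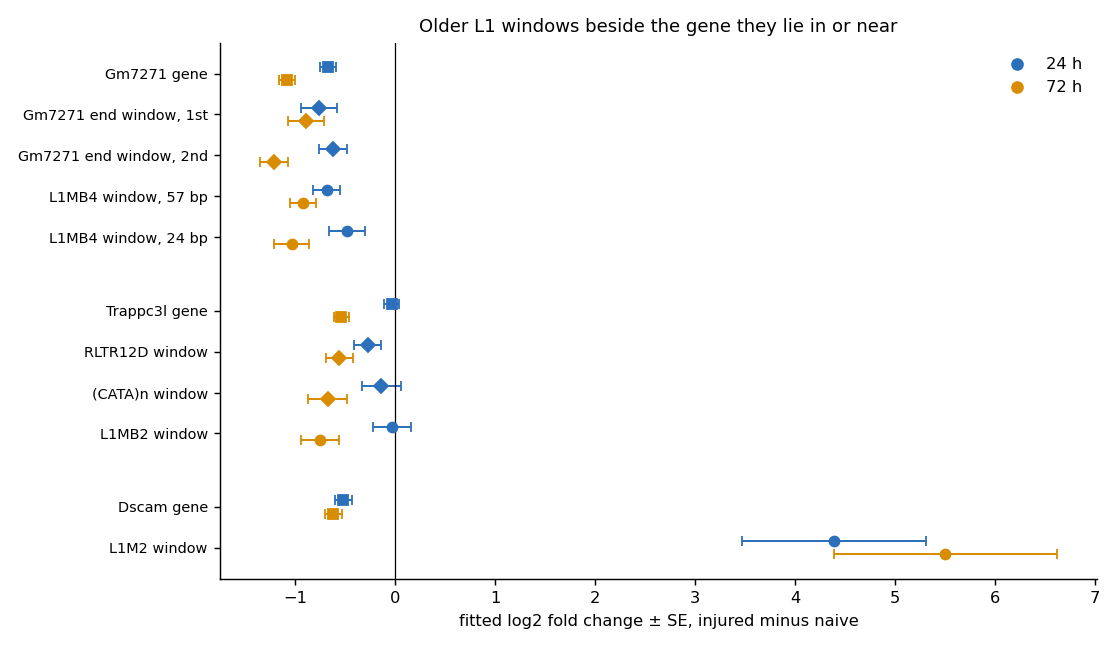
Fitted log2 fold change of injured against naive ganglia, with SE, at 24 h (blue) and 72 h (orange), for L1 windows (circles), other windows close by (diamonds) and the gene they lie in or near (squares). At 72 h the L1MB4 windows fell beside Gm7271 and the L1MB2 window beside Trappc3l, whereas the L1M2 window in Dscam rose by 4.39 at 24 h while Dscam fell by 0.52.

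The remaining falls were seen at 24 h. The Lx8 window chr16:6847299-6847322, in an intron of the neuronal splicing regulator Rbfox1, had 10, 11, 8 and 8 counts in naive libraries and none in injured libraries at 24 h, at least 9.94-fold lower (adjusted p = 0.0311). The counts at 72 h were 1, 4, 28 and 14 in naive and 15, 12, 8 and 1 in injured libraries, and the window did not pass. Rbfox1 had a log2 fold change of 0.08 ± 0.05 at 24 h and did not pass. Leaving out any library at 24 h but naive 3 moved the adjusted p of the Lx8 window past the threshold, to between 0.0513 (without naive 4) and 0.0805 (without injured 4). Without naive 1 or 2 it was 0.0532 or 0.0554, and without injured 1, 2 or 3 it was 0.0545, 0.0684 or 0.0602.

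The Lx window chr17:66256764-66256787 lies outside genes. It had 2.09, 1.61, 2.07 and 1.53 CPM in naive and 0.592, 1.11, 0.308 and 1.02 CPM in injured libraries at 24 h, with no overlap (-1.25 ± 0.33, adjusted p = 0.0311). Its level at 72 h was 1.22 ± 0.152 in naive and 0.966 ± 0.285 CPM in injured ganglia and did not pass (-0.33 ± 0.32, adjusted p = 0.65). Without naive 24 h library 1, 2 or 3 or injured 24 h library 1 or 3 the adjusted p was 0.0776, 0.0527, 0.0759, 0.0759 or 0.075. With no filter it was 0.429 and with the 24 h libraries alone 0.132.

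**Figure D4:**
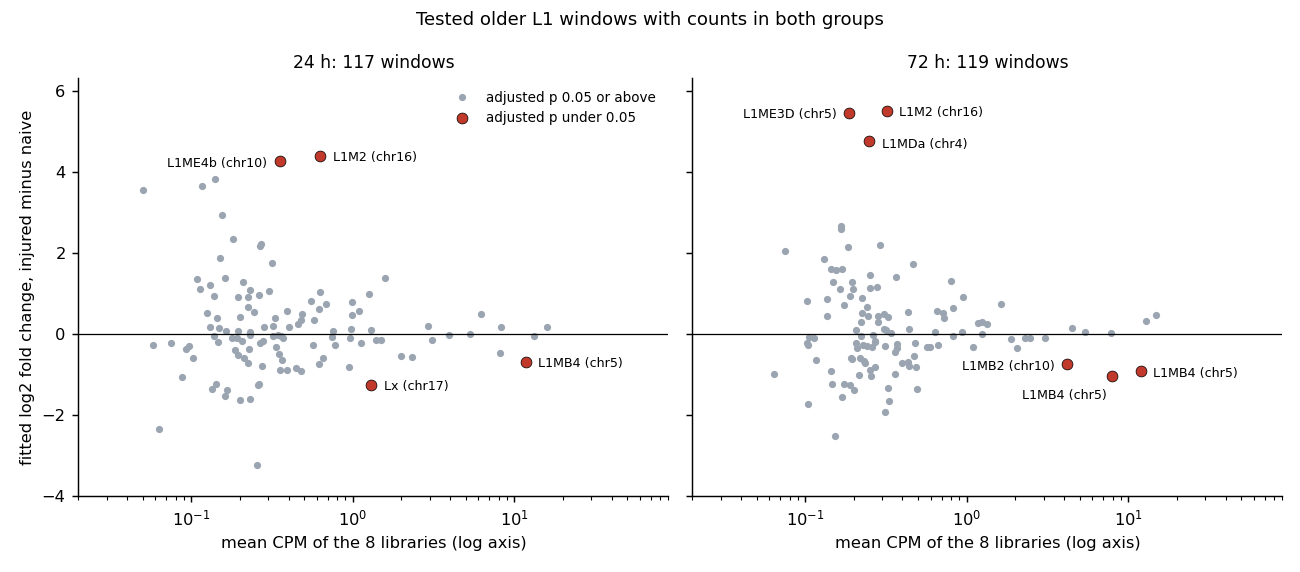
Fitted log2 fold change, injured minus naive, against the mean CPM of the 8 libraries compared (log axis), for 117 tested older L1 windows at 24 h and 119 at 72 h that had counts in both groups. Windows with an adjusted p under 0.05 are red and named. Above 10 CPM, 1 L1MB4 window lies at -0.68 and -0.92, and the others lie between -0.05 and 0.47.

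No older L1 window passed the test of the difference between the responses at 72 h and 24 h, against 0.0794% of all tested windows that passed upward and 0.185% downward. For the Lx6 window, without a count in either naive group, this difference could not be estimated (SE 3094.5). Its result therefore does not show that its responses were alike at both times. The L1ME4b, L1MDa and Lx8 windows had a group with no count, so their differences rest on a fitted value for that group. By edgeR 11 members had an unadjusted p under 0.05 (9.09%, against 8.2% of all tested windows), and DESeq2 also called 0. The smallest p values belonged to the Lx8 window in Rbfox1 (adjusted p = 0.339), an Lx3_Mus window and the L1MB2 window (adjusted p = 0.484). The Lx3_Mus window, chr13:89185871-89185894 in an intron of Edil3, had 0.628 ± 0.61 and 0.331 ± 0.16 CPM in naive and injured ganglia at 24 h and 0.465 ± 0.187 and 1.14 ± 0.409 CPM at 72 h. Its difference of responses was 2.21 ± 0.80 (adjusted p = 0.436).

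The most counted older L1 window did not pass. This L1_Mur2 window, chr12:110315972-110315995, overlaps the start of Gm6988, a pseudogene with 366 of 375 bases (97.6%) in common with Rps25, a gene of the small ribosomal subunit. It had 11.4, 10.8, 12.4 and 15.6 CPM in naive and 16.7, 18.9, 18.5 and 15.3 CPM in injured libraries at 72 h, with overlap (0.47 ± 0.16, adjusted p = 0.0629). Without naive 72 h library 4 the adjusted p was 0.0344, by DESeq2 it was 0.00871, with the 72 h libraries alone 0.0487 and with windows of no repeat family added 0.0358. Rps25 itself rose by 0.21 ± 0.08 at 72 h (adjusted p = 0.0406). Reads of near-identical copies could be split or shared in counting, so which copy gave these counts is uncertain.

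The Lx5 pair in the Rps20 copy did not pass either. The window at chr3:119709764-119709787 had 13.5 ± 2.97 and 13.0 ± 1.03 CPM in naive and injured ganglia at 24 h. Its 72 h levels were 11, 12.0, 11.9 and 11.3 CPM in naive and 13.4, 14.3, 15.6 and 14.3 CPM in injured libraries, without overlap but without passing (0.32 ± 0.15, adjusted p = 0.21). The window at chr3:119709597-119709620 had 7.74 ± 0.352 and 7.92 ± 0.601 CPM at 72 h (0.03 ± 0.15). Rps20 had a log2 fold change of 0.09 ± 0.06 at 72 h (adjusted p = 0.304). Together the 3 counted windows named here in or at copies of Rps20 and Rps25 held 22.9% of all member counts. Their joint level was 36.3 ± 6.0 CPM in naive and 38.6 ± 3.16 CPM in injured ganglia at 24 h, with overlap, and 31.8 ± 1.82 and 39.6 ± 2.81 CPM at 72 h, without overlap (log2 ratio 0.32). No test was made of this sum, and the 3 windows were put together after their values were seen.

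Other well counted loci did not pass. The L1MA4 window in Emc7 had 5.31 ± 1.02 and 5.30 ± 1.48 CPM at 24 h and 5.33 ± 0.245 and 5.47 ± 0.742 CPM at 72 h in naive and injured ganglia. The Lx window chr1:15067259-15067321 had 4.25, 4.66, 5.15 and 6.51 CPM in naive and 8.04, 5.07, 7.67 and 8.12 CPM in injured libraries at 24 h, with overlap through injured library 2 (0.49 ± 0.19, adjusted p = 0.166). On chromosome X, 7 L1VL4 and Lx2 windows within 2393 bp, 1626 bp from Car5b, a mitochondrial carbonic anhydrase gene, held 6.54% of all member counts. They summed to 10.6 ± 1.27 and 9.33 ± 0.542 CPM at 24 h and to 11 ± 1.02 and 10.6 ± 0.86 CPM at 72 h, with overlap at both times.

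A cluster of 3 windows in Gm37928, of which an Lx5b sequence is given above, had overlapping summed levels. They were 3.19, 2.26, 3.97 and 2.58 CPM in naive and 3.53, 5.29, 4.18 and 5.60 CPM in injured libraries at 72 h. The annotated gene rose by 0.49 ± 0.12 at 72 h (adjusted p = 0.00344) and did not pass at 24 h (0.10 ± 0.12, adjusted p = 0.667). None of its 3 windows passed the test.

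For tested windows in genes, the window and its host gene were set side by side. Of 29 exonic windows with counts in both groups and a tested host gene, 16 had the sign of the host gene at 24 h and 16 at 72 h. Of intronic windows it was 16 of 31 at 24 h and 16 of 33 at 72 h. As a description, Pearson's r across windows was 0.29 and 0.28 for exonic and intronic windows at 24 h and 0.09 and 0.22 at 72 h. These points share libraries, and some share a host gene, since the 29 exonic windows lie in 22 genes. The host gene passed for 6 of the exonic and 11 of the intronic windows at 24 h. At 72 h it passed for 10 exonic and 13 intronic windows. Where a host changed little, its sign says little, so these values cannot tell whether windows follow their host genes.

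Summed by repeat name, few older L1 names changed. Of 69 tested older L1 names none rose and 1 fell at 24 h, against 1.76% and 0.294% of all 340 tested repeat names. At 72 h 2 rose and 2 fell, against 2.65% and 2.06%. L1MB4 fell by 0.60 at 24 h (adjusted p = 0.0317) and by 0.95 at 72 h (adjusted p = 0.000298). Of its 14181 counts, 14060 came from the 2 windows near Gm7271, with 59.1% in the larger window. L1MB2 fell by 0.74 at 72 h (adjusted p = 0.0101), with 96.9% of its counts in the Trappc3l window. The rises at 72 h were L1ME4b, by 1.62 (adjusted p = 0.0426), with 50.6% of its counts in the window described above, and L1ME3D, with all of its counts in its window. Of the 6 names with the most counts L1MB4 alone passed, and Lx5, L1_Mur2, Lx, L1VL4 and L1MA4 did not pass at either time.

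Genes known to silence L1 or to restrict its RNA were read from the gene table. Of 38 listed genes 36 were tested, and 5 rose and none fell at 24 h, against 10.7% and 8.31% of all tested genes. Zc3hav1, an antiviral protein that binds RNA, rose by 0.88 ± 0.06 (adjusted p = 4.97e-10). Samhd1, which breaks down nucleotides needed for reverse transcription, rose by 0.66 ± 0.10 (adjusted p = 2.11e-05). Dnmt1, the maintenance DNA methyltransferase, rose by 0.51 ± 0.08 (adjusted p = 0.000109). At 72 h 4 rose and 3 fell, against 14.4% and 13.5% of all tested genes, and Hells, a chromatin remodeller needed for DNA methylation, fell by 0.67 ± 0.12 (adjusted p = 0.000213). For the difference of responses none rose and 3 fell, against 2.86% and 3.44% of all tested genes: Samhd1 by 0.76 ± 0.14, Dnmt3a, a de novo DNA methyltransferase, by 0.52 ± 0.11 and Zc3hav1 by 0.42 ± 0.09 (adjusted p = 0.00103, 0.00581 and 0.00594). Trim28 and Setdb1, which place repressive chromatin on repeats, did not pass at either time, with log2 fold changes of -0.21 ± 0.08 and 0.05 ± 0.06 at 24 h (adjusted p = 0.0613 and 0.662).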

How the data were processed

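The authors deposited 2 tables of raw counts, one for genes and one for short genomic windows, with no scaling. Per the submitters' processing notes, the tools were HTSeq, STAR and bcl2fastq 2.17 and the builds mm10 and GRCm38. A strand setting, an annotation release and a rule for reads with several positions are not given in the sources used here. Columns without a time in their name were assigned to 72 h by elimination. Window counts went into edgeR 4.0.16 (R 4.3.3): a quasi-likelihood fit on 16 libraries by group, library sizes and TMM factors from the gene table, filterByExpr (minimum count 10, minimum total 15) and Benjamini-Hochberg adjustment over 3780 windows. Genes (19151 tested) and repeat names (340) were fitted likewise. SE is the absolute log2 fold change over the square root of F. DESeq2 1.42.0 was an alternative.

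The members and lists were chosen with earlier results of these data known. Named windows are those past an adjusted p of 0.05, the 8 most counted members and, for the difference of responses, the 3 of smallest p. Windows were placed with GENCODE M21 and bedtools 2.31.1. Genes beside a named window were sought among tested genes only, so an untested gene may lie closer. As a check of the build, 97.45% of exonic windows by the file's annotation lay in GENCODE exons, against 21.79% of all windows. Fits were tested on simulated data. No pair of libraries of a group was near to being duplicated, with chi-square at least 9.56 per degree of freedom. The labels name 4 mice per time but not the animal of each library, so p-values measure the spread between libraries, which may be partly technical. Intervals and floors cover counting error only.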

Additional observations from a re-analysis of the deposited data

Results flagged for a closer look

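For the 16 windows named by rule and the summed level, 68 groups of 4 libraries were examined for a library that stood apart from the other 3, and 6 had one. Chance alone would flag about 1 group in 20. That rate does not apply where 3 libraries had no count, since any count in the other library is then flagged. In naive libraries the flags were single libraries with a few counts where the others had none: the L1M2 window in naive 72 h library 1 (0.0466 CPM), the L1MDa window in naive 72 h library 4 (0.0534 CPM), and the L1ME3D window in naive 24 h library 1 (0.0634 CPM) and naive 72 h library 3 (0.0254 CPM). The Lx window on chromosome 17 had 0.541 CPM in injured 72 h library 3, against 1.07 to 1.14 CPM in the others of that group. The Lx window on chromosome 1 had 5.07 CPM in injured 24 h library 2, against 7.67 to 8.12 CPM.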

How the results depend on the processing

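The windows called at 24 h numbered 7, but 3 with a replicate block, 2 with the libraries of that time alone and 10 by DESeq2. When 1 library was left out they numbered 4 (without injured 24 h library 4) to 8. Leaving out a library also loosened the filter, so that 148 to 155 older L1 windows were tested and not 121. The call counts and adjusted p-values without 1 library reflect both changes. At 72 h 8 were called, 9 by DESeq2, and 5 (without naive 72 h library 2) to 9 when 1 library was left out. For the difference of responses 0 were called, and 1 with no filter. Of repeat names 1 was called at 24 h, against 3 by DESeq2, 0 with the replicate block and 0 to 2 when 1 library was left out, and 4 at 72 h, against 2 with the block and 1 to 4. The summed level had a log2 ratio of -0.32 at 24 h and -0.14 at 72 h when scaled to all repeat windows. At 72 h it had 0.027 without the 10 most counted windows and -0.19 without windows in exons. It ran from -0.034 to 0.045 and from -0.083 to -0.012 when 1 library was left out. The sign turned in a few comparisons that did not pass in either case. When 1 library was left out, Lx8 at 72 h ran from -0.75 to 0.82, L1MB2 at 24 h from -0.12 to 0.079, the Lx5 window at chr3:119709764-119709787 from -0.18 to 0.070 at 24 h, that at chr3:119709597-119709620 from -0.0024 to 0.065 at 72 h, and L1MA4 from -0.19 to 0.13 at 24 h and from -0.025 to 0.11 at 72 h. With repeat-window scaling the latter Lx5 window had -0.050 and L1MA4 -0.048 at 72 h. Same-numbered injured and naive libraries correlated by 0.028 to 0.086, under 0.1 in all 8 pairs. Yet 7 of 8 injured libraries correlated best with their own number, so these values do not settle whether the numbers pair the libraries. The main fit took no pairs because the labels give none, whereas the replicate block takes same-numbered libraries as pairs. With the replicate block these calls were lost: at 24 h L1MDa (adjusted p = 0.0953), L1ME4b (0.186), Lx8 (0.149) and Lx on chromosome 17 (0.0916), and at 72 h L1MDa (0.0634) and L1ME3D (0.0502). Among repeat names the block lost L1MB4 at 24 h and both rises at 72 h, L1ME4b and L1ME3D. It ended no other call of a window named by rule, and made none. Keeping only windows annotated as L1, an alternative chosen after seeing the data, moved no count by over 1.5 times. The cause of these shifts was not tested. Depth limits what can be said of the 5129 members with no count and of the 1881 with counts that were not tested.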
